A study of Mus musculus with 12 samples.

Results

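Stellate cell and extracellular matrix genes were followed in whole liver of male and female mice given low-dose cadmium or water. The list was set by gene function and holds 39 genes of the fibrillar, basement membrane and microfibril collagens, the matrix glycoproteins and small proteoglycans, the contractile proteins, the receptors and markers of hepatic stellate cells, the matrix enzymes with their inhibitors, and 2 fibrogenic signals. Of the 39 genes, 38 had a probe set of their own among 18193 such genes on the array, and Fbn1 was not analysed here. The signal filter kept 36 of them among 12820 genes, whereas Col15a1, whose signals ran from 4.78 to 103, and Lox, from 10.8 to 101, lay below it on average. Connective tissue growth factor is called Ctgf here, and its current symbol is Ccn2.

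The 12 Affymetrix arrays were made from livers of C57BL/6J mice at 30 weeks of age, with 3 LDC males, 3 control males, 3 LDC females and 3 control females. LDC stands for 100 nM cadmium chloride in the drinking water, which dams received from 1 week before mating and their young received until sacrifice. Control mice had water alone, and no other treatment separated the groups. Each array carries a biological replicate number in its label. No source used here gives litters or cages, so all tests treated the mice as independent and measure only the spread between these samples. Whole liver RNA was used, so fewer cells of a type and less RNA per cell cannot be told apart.

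Hepatic stellate cells lie between the sinusoidal endothelium and the hepatocytes and store vitamin A as retinyl esters. After liver injury they take on a contractile, matrix-secreting state driven mainly by TGF-beta and PDGF, and their collagens, proteoglycans and protease inhibitors form the fibrous scar. In a healthy liver, the same genes maintain the sparse matrix of the sinusoids, portal tracts and vessels.

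Xist matched the labels of sex and lay between 72.3 and 134 signal units in males and between 16258 and 18731 in females. The summed signal of 10 hepatocyte markers lay between 371782 and 380714 in LDC males and between 364124 and 416788 in control males. In LDC females it lay between 329408 and 363631, and in control females between 328408 and 370252. LDC males thus lay above LDC females, while control males and control females overlapped. Stellate cell markers outside the list were measured too: 17 of 18 with a probe set passed the filter, and their sum lay between 16994 and 20572 in LDC males, 16761 and 23233 in control males, 17576 and 18993 in LDC females, and 19251 and 24195 in control females. One array stood apart in the genes of the list. In control female 1, 30 of 36 members were above their mean over the 12 arrays, with a median deviation of 0.64 on the log2 scale, whereas the other females had medians between 0.03 and 0.22. Control male 2 was the lowest, with 3 of 36 members above their mean and a median deviation of -0.49. Many of the results that rest on these arrays are therefore also given without them, but not those of second probe sets.

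LDC moved no stellate or matrix gene past the adjusted threshold in either sex. In males, 0 of 36 members were higher and 0 were lower at an adjusted p under 0.05 (limma over 27022 probe sets), where 0.195% and 0.179% of all genes tested were. In females, the counts were again 0 and 0, where 0.0234% of all genes were higher and 0.14% were lower. The effect in males minus that in females gave 0 members in each direction, against 0.164% of all genes for a more positive and 0.0624% for a more negative effect in males. The mean effect over both sexes gave 0 members too, against 0% of all genes higher and 0.039% lower.

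At an unadjusted p under 0.05, 3 members were lower in LDC males than in control males, namely Col4a1, Timp2 and Ctgf, which was 8.33% of the members against 5.88% of all genes. None was higher, against 5.59% of all genes. In LDC females, Lum, Pdgfra and Ctgf were lower than in control females, again 8.33% of the members, against 5.48% of all genes, and none was higher, against 4.45%. The effect was more positive in males than in females for Dcn, Lum and Pdgfra, 8.33% of the members against 6.63% of all genes, and more negative for none, against 5.55%. These shares were close to the background. The members had a median log2 difference of 0.09 in males and -0.12 in females, whereas all genes had medians of -0.01 and -0.02. Both medians depended on single arrays, since the male one was 0.01 without control male 2 and 0.17 without control male 3, and the female one was 0.04 without control female 1 and -0.31 without control female 2. The plot of the LDC effects by gene shows most intervals crossing 0 in both sexes.

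**Figure D1:**
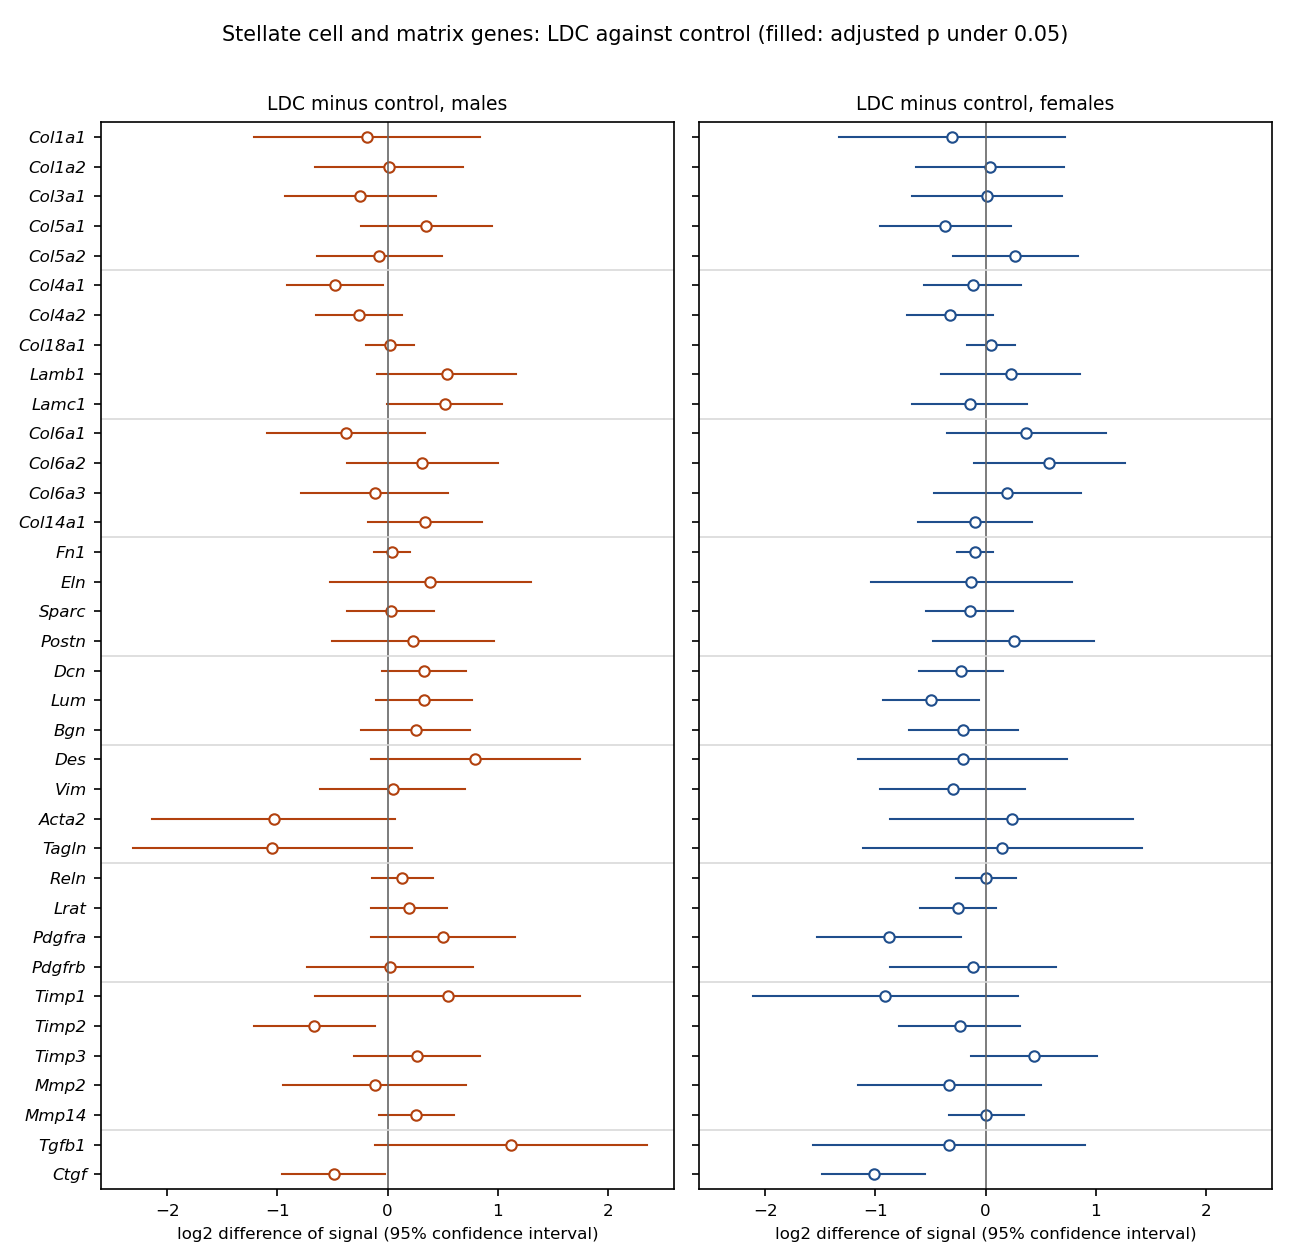
LDC minus control log2 differences of the 36 stellate and matrix genes in males (left) and females (right), with 95% confidence intervals from limma and grey lines between functional groups. Open points did not reach an adjusted p under 0.05, and all points are open. Ctgf lies left of 0 in both panels, at -0.49 in males and -1.02 in females.

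More members were called between the sexes than for LDC. In control males, 6 of 36 members were lower than in control females at an adjusted p under 0.05, namely Lum, Bgn, Lrat, Pdgfra, Pdgfrb and Mmp14. This was 16.7% of the members, against 5.59% of all genes tested. None was higher, against 3.84% of all genes. At an unadjusted p under 0.05, 14 members (38.9%) were lower in control males, against 14.7% of all genes, and for 15 members (41.7%) all 3 control males lay below all 3 control females, against 15.7% of all genes. The median log2 difference of the members was -0.48, against -0.06 over all genes, and it was -0.27 without control male 2. Without control male 2 the called members were Lrat, Mmp14 and Ctgf, the last higher in males, and without control female 1 they were Fn1, Lum, Lrat, Mmp14 and Timp3, the last higher in males. Lrat and Mmp14 alone passed in all 12 fits that each dropped an array.

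Between LDC males and LDC females, 1 member was lower in males (Mmp14), against 4.2% of all genes, and 1 was higher (Ctgf), against 3.32% of all genes. At an unadjusted p under 0.05, 10 members (27.8%) were lower in LDC males, against 13.1% of all genes, and for 14 members (38.9%) all LDC males lay below all LDC females, against 17.5%. The median difference was -0.25, against -0.05 over all genes, and it was -0.16 without LDC female 1. Whether a sex difference depended on LDC was tested by the male minus female effect, in which no member passed.

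**Figure D2:**
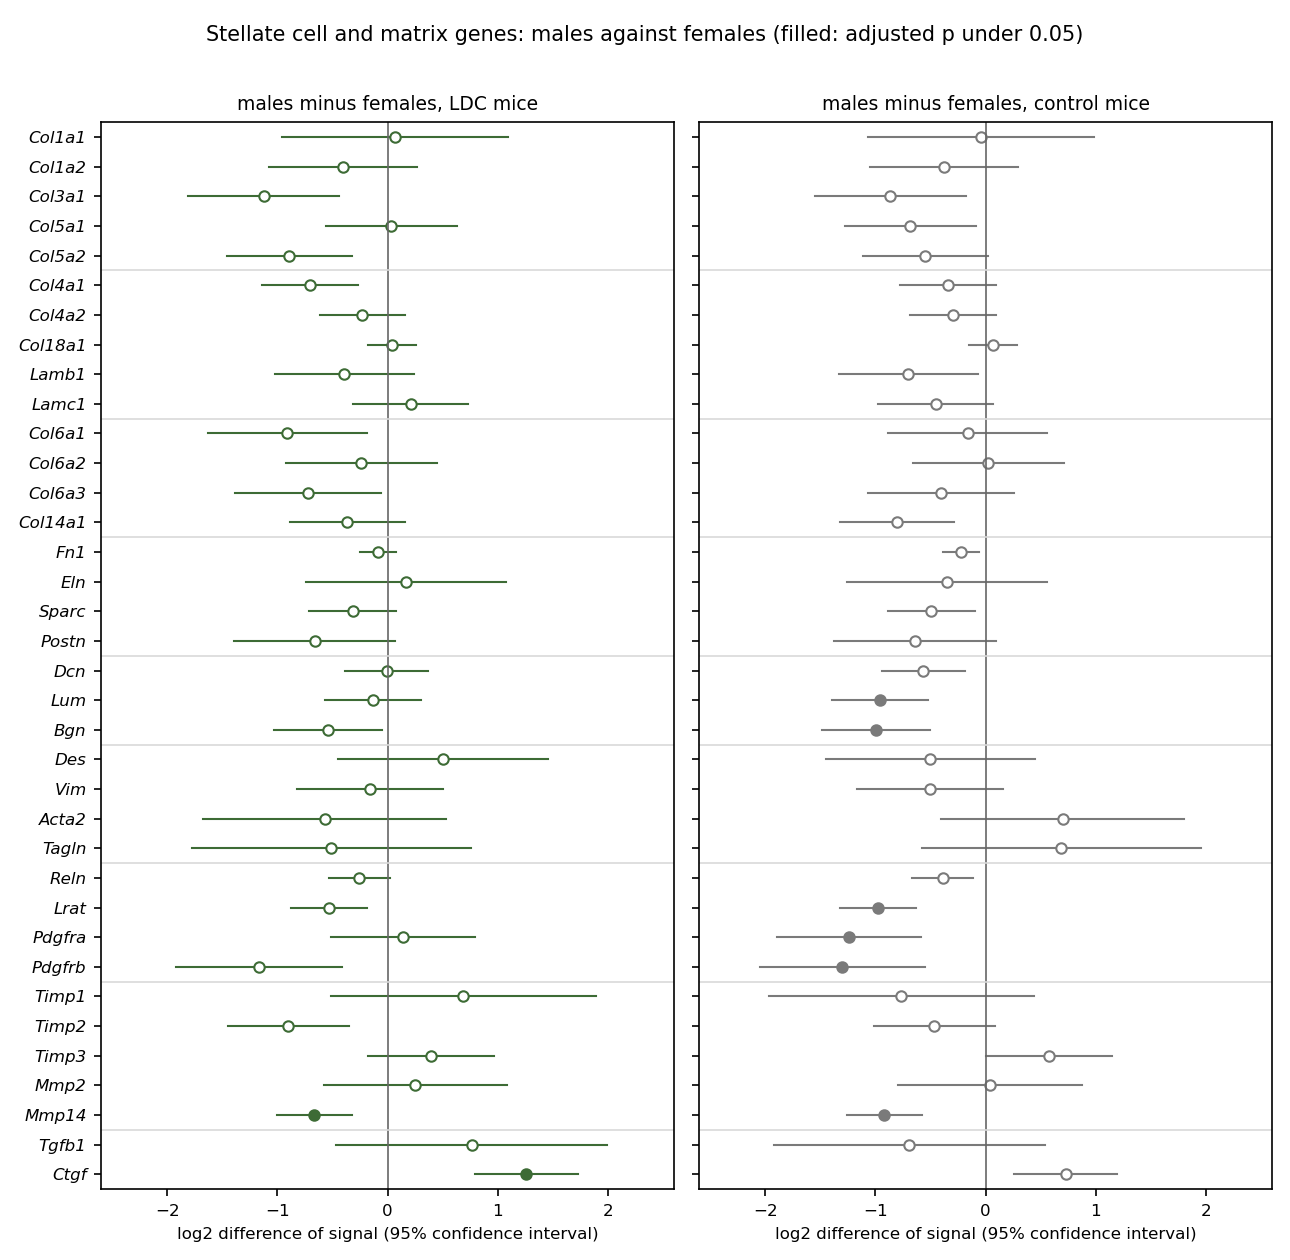
Male minus female log2 differences of the same 36 genes in LDC mice (left) and in control mice (right), with 95% confidence intervals from limma. Filled points had an adjusted p under 0.05. In control mice 29 of 36 points (80.6%) lie left of 0, against 55.7% of all genes. In LDC mice 24 (66.7%) do, against 55.1% of all genes, with Ctgf the filled point to the right.

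Lrat and Mmp14 were the members whose sex difference in control mice kept its call without any 1 array. Lrat encodes lecithin retinol acyltransferase, the enzyme that makes the retinyl esters stored in stellate cells. Its signal was 876, 841 and 669 in LDC males and 801, 590.5 and 697 in control males, against 1058, 1285 and 1099 in LDC females and 1507, 1168 and 1434 in control females. Every male lay below every female. Control males were lower than control females by 0.98 on the log2 scale (fold 0.507, SE 0.16, adjusted p = 0.00175, limma), and LDC males were at -0.53 from LDC females (SE 0.16, adjusted p = 0.0669). A second, dimmer probe set of Lrat gave -0.41 in control mice with an adjusted p of 0.556. LDC effects were 0.19 (95% interval -0.15 to 0.54) in males and -0.25 (-0.60 to 0.09) in females. Mmp14 encodes a membrane-anchored protease that cleaves collagen and activates pro-MMP2. It measured 788, 584 and 781 in LDC males and 630.1, 500.3 and 660.5 in control males, against 1018, 1192 and 1180.2 in LDC females and 1035, 1166 and 1170.2 in control females. Here too no male reached the lowest female. The difference was -0.67 in LDC mice (SE 0.16, adjusted p = 0.0209) and -0.92 in control mice (SE 0.16, adjusted p = 0.00244). Its 2 dimmer probe sets gave differences of the same sign, -0.96 and -0.50 in control mice, with adjusted p-values of 0.0936 and 0.523. In LDC mice the adjusted p was 0.0986 without LDC male 2, 0.0857 without LDC female 2 and 0.0758 without LDC female 3.

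The upstream sequences were looked up for the 6 genes called lower in control males. Whether these bases play a part in the difference was not tested. A RefSeq promoter entry (GRCm38.p6) was matched for 4 of the 6 genes, and the 250 bases before the start used in that entry were searched on both strands for the GC box GGGCGG, the CCAAT box, the TATA box TATAAA and the STAT-type palindrome TTCNNNGAA. Capitals mark GC boxes and CCAAT boxes in either orientation. The Lrat stretch is chr3:82903975-82904224 (minus strand), that of Mmp14 is chr14:54431348-54431597 (plus strand) and that of Bgn is chrX:73483351-73483600 (plus strand), and all 3 end where the annotated gene begins. The Pdgfra entry, chr5:75152001-75152250 (plus strand), lies inside the annotated gene, which begins at position 75151322, so its letters are not printed.
Lrat: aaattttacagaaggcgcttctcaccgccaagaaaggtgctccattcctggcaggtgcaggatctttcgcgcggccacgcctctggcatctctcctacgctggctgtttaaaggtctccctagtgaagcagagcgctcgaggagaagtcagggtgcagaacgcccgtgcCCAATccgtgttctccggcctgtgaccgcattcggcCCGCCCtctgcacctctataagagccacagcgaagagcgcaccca
Mmp14: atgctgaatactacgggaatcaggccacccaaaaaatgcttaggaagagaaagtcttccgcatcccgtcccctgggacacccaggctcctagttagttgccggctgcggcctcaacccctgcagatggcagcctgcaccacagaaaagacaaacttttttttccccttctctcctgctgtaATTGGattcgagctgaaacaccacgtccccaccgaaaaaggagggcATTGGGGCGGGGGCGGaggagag
Bgn: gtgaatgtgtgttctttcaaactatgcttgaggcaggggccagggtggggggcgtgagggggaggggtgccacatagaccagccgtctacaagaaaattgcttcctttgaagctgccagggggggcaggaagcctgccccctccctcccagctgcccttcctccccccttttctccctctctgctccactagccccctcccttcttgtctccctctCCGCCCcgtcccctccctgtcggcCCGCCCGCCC
Lrat had 1 GC box and 1 CCAAT box, Mmp14 had 2 of each, with 1 of its CCAAT boxes sharing a base with a GC box, and Bgn had 3 GC boxes, of which 2 overlap. The Pdgfra stretch held none of these motifs, which says nothing of the bases before the start of the gene. The TATA letters and the palindrome were found in none of the 4 stretches. Over all 32851 stretches of this length, 32.7% held a GC box, 33.8% a CCAAT box, 12.4% the TATA letters and 7.02% the palindrome. A match describes letters only, and binding was not measured.

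The PDGF receptors are the receptors through which platelet-derived growth factor drives stellate cell division and migration. Pdgfra, the alpha receptor, had signals of 395, 441 and 524 in LDC males and 463, 274 and 254 in control males, against 485, 430.03 and 328 in LDC females and 1234, 688 and 503 in control females. The control females were the high group and stood above all LDC females and all control males. Pdgfra was lower in control males than in control females by 1.24 on the log2 scale (SE 0.30, adjusted p = 0.0223, limma), and the adjusted p was 0.0928 without control female 1, 0.0839 without control male 2 and 0.0870 without control male 3. Between LDC males and LDC females the difference was 0.14 (95% interval -0.51 to 0.79). The LDC effect was 0.50 (-0.15 to 1.15) in males and -0.88 (-1.53 to -0.23) in females, with adjusted p-values of 0.619 and 0.393, and the effect in females was -0.52 without control female 1. These effects differed by 1.38 (SE 0.43, unadjusted p = 0.00619, adjusted p = 0.297), and by 1.02 without control female 1. Pdgfrb, the beta receptor and a common stellate cell marker, measured 256, 289 and 317 in LDC males and 321, 208 and 339 in control males, against 542, 564 and 870.2 in LDC females and 1415, 492 and 484 in control females. No male reached a female, and control female 1 was far above its group. The sex difference was -1.17 in LDC mice (SE 0.35, adjusted p = 0.0664) and -1.30 in control mice (SE 0.35, adjusted p = 0.0359), and the second of these values was -0.79 with an adjusted p of 0.114 without control female 1 and -1.08 with 0.138 without control male 2. Its adjusted p was also above the threshold without control male 1 (0.0590), control male 3 (0.0567) or LDC male 2 (0.0504). A second probe set of Pdgfrb gave -1.43 in control mice with an adjusted p of 0.242. Reln, encoding the secreted glycoprotein reelin, which marks stellate cells in liver, had means of 3245 ± 203 in LDC males, 2969.9 ± 375 in control males, 3877 ± 168 in LDC females and 3910.0 ± 739 in control females (SD, n = 3 each). All males lay below all females in both exposure groups, with log2 differences of -0.26 in LDC mice and -0.39 in control mice that did not pass the adjusted threshold.

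**Figure D3:**
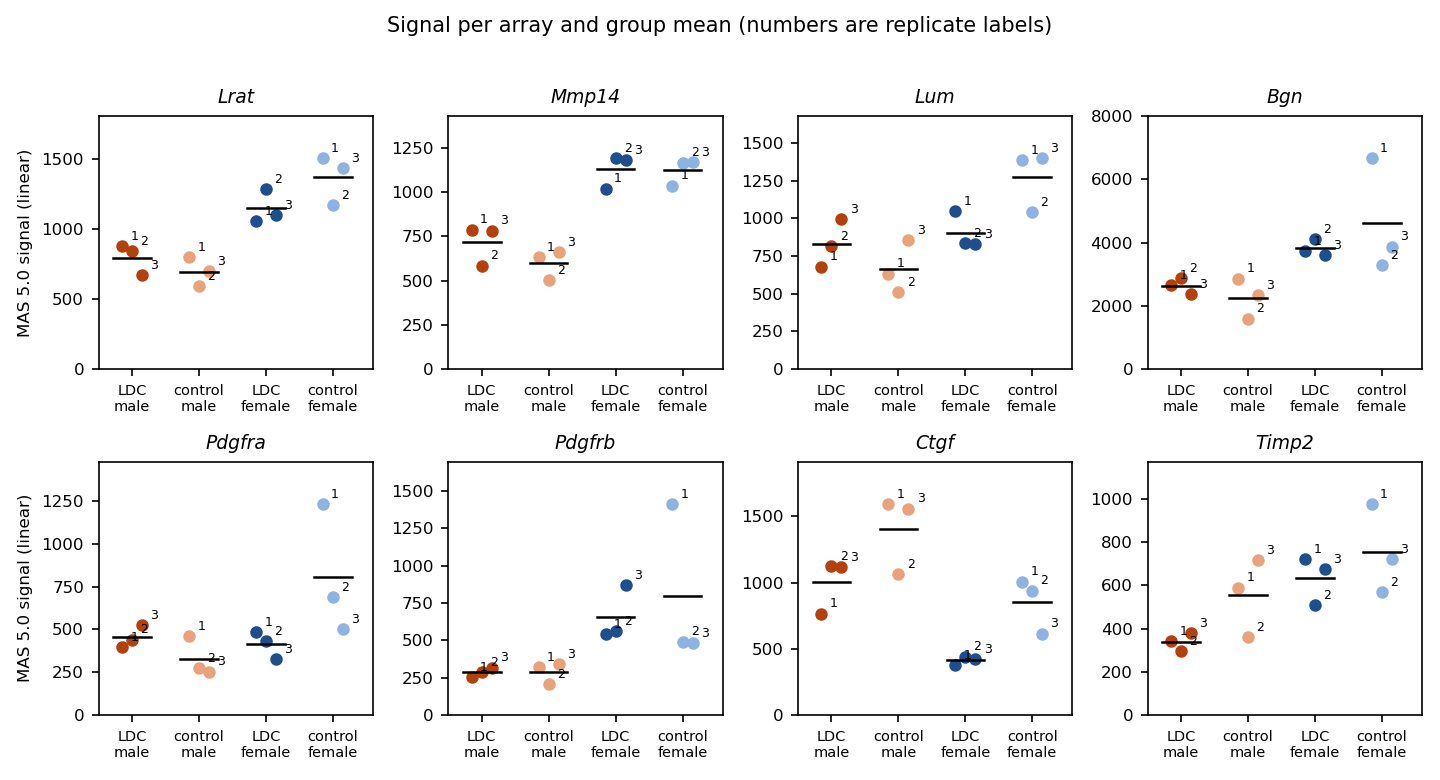
MAS 5.0 signal on a linear scale for 8 genes in each of the 12 arrays, grouped as LDC males, control males, LDC females and control females. Points are arrays labelled with their replicate number and lines are group means. All male points lie below all female points for Lrat, Mmp14 and Pdgfrb, and Ctgf shows the lowest values in LDC females, from 375 to 442.

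The small leucine-rich proteoglycans decorin, lumican and biglycan coat collagen fibrils and regulate their width, and decorin and biglycan bind TGF-beta. Lum gave 680.0, 815 and 996 in LDC males and 633, 511 and 857 in control males, against 1047, 837 and 827 in LDC females and 1386, 1041 and 1401 in control females. Control males did not overlap control females, whereas LDC males and LDC females did overlap. Lum was lower in control males than in control females by 0.96 on the log2 scale (SE 0.20, adjusted p = 0.0101, limma), or by 0.78 with an adjusted p of 0.0503 without control male 2. The difference between LDC males and LDC females was -0.13 (95% interval -0.57 to 0.30). The LDC effect was 0.33 (-0.11 to 0.77) in males and -0.49 (-0.93 to -0.06) in females, and the 2 effects differed by 0.82 (SE 0.29, unadjusted p = 0.0123, adjusted p = 0.354). Bgn measured 2668, 2869.6 and 2363 in LDC males and 2860.4, 1598 and 2332 in control males, against 3739, 4120.4 and 3614 in LDC females and 6678, 3280.4 and 3873 in control females. Every male lay below every female. The difference was -0.54 in LDC mice (adjusted p = 0.213) and -0.998 in control mice (SE 0.23, adjusted p = 0.0162), and all 3 probe sets of Bgn passed in control mice, at -0.998, -0.82 and -1.33. Control female 1 was the highest array for all 3 probe sets, so they do not test the difference apart from it. Without control female 1 the difference in control mice by the brightest probe set was -0.70 with an adjusted p of 0.0516, and without control male 2 it was -0.77 with an adjusted p of 0.0743. Dcn gave 9657, 9066 and 9378 in LDC males and 8698, 6679 and 7071 in control males, against 10228, 10976 and 7439.9 in LDC females and 15078, 9163 and 9634 in control females. All LDC males lay above all control males, by a mean log2 difference of 0.33 (95% interval -0.05 to 0.71, adjusted p = 0.553), and all control males lay below all control females, at -0.57 (SE 0.18, adjusted p = 0.0689). Its LDC effects differed between the sexes by 0.56 (unadjusted p = 0.0428, adjusted p = 0.477), and by 0.33 without control female 1.

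Macrophage markers moved beside these differences. In males, the 14 measured Kupffer cell and macrophage markers had a median LDC effect of 0.71. There 13 of 14 were above 0, where 51.2% of all genes were below 0. In females their median was -0.88, with 14 of 14 below 0, against 52.2% of all genes. The effects differed by a median of 1.53, and 9 of 14 had an unadjusted p under 0.05 for that difference, none an adjusted one, where 6.63% of all genes had a more positive effect in males at that unadjusted threshold. The female values leaned on LDC female 3. Without that array the median in females was -0.25, with 11 of 14 below 0, and the effects differed by a median of 0.84, with 7 of 14 at an unadjusted p under 0.05. Without control female 1 these medians were -0.60 and 1.23, with 5 of 14. Their summed signal lay between 31657 and 45966 in LDC males and between 22680 and 23090 in control males, against 10207 to 50394 in LDC females and 26202 to 70805 in control females. The highest sum belonged to control female 1 and the lowest to LDC female 3. Clec4f, the lectin that defines mouse Kupffer cells, had signals from 2589 to 3355 in LDC males, 1778 to 2137 in control males, 900.2 to 2989.7 in LDC females and 2144 to 4217 in control females. The part of these cells in the values of Pdgfra, Lum, Dcn and Bgn was not tested.

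**Figure D4:**
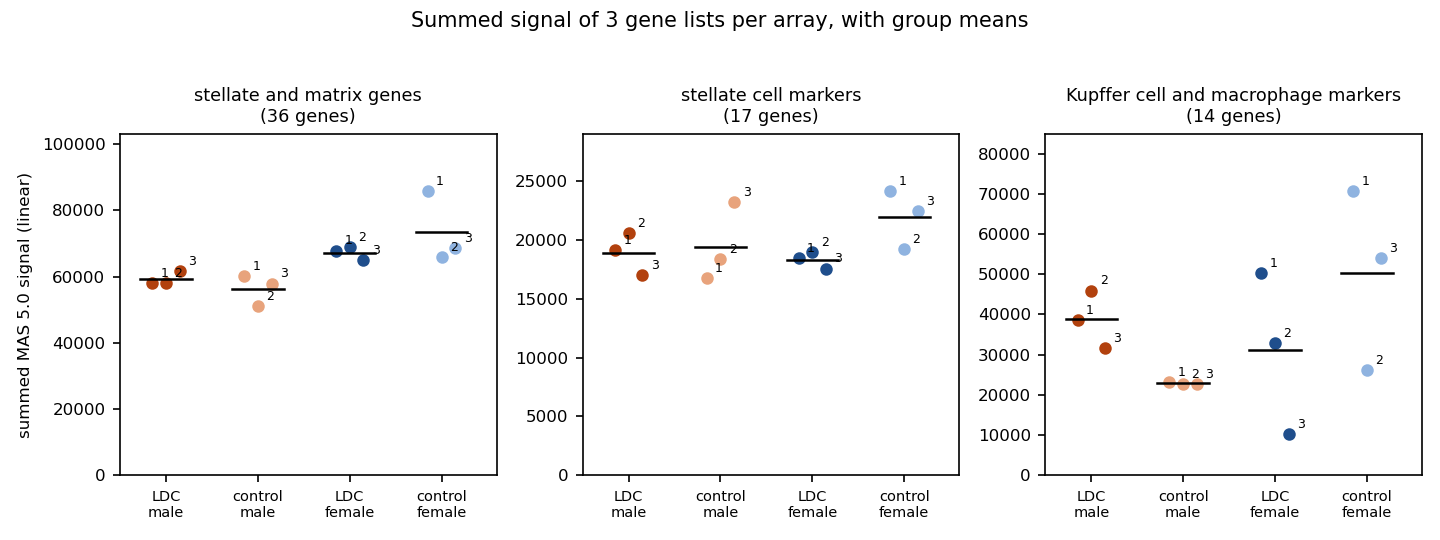
Summed MAS 5.0 signal, of the 36 stellate and matrix genes (left), 17 stellate cell markers outside the list (centre) and 14 Kupffer cell and macrophage markers (right) in each array, with group means as lines. The left sums are lower in every male than in every female, and in the right panel the control males lie closely together while the females spread widely.

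The summed signal of the 36 members lay between 58036 and 61706 in LDC males and between 51074 and 60047 in control males, against 64933 to 68965 in LDC females and 65975 to 85900 in control females. All 6 males were thus below all 6 females. A sum gives most weight to the brightest probe sets, and the highest value was again that of control female 1.

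Ctgf and Tgfb1 are the fibrogenic signals of the list. Ctgf, a secreted matricellular protein induced by TGF-beta, had signals of 766, 1123 and 1118 in LDC males and 1595, 1065 and 1559.6 in control males, against 375, 442 and 424 in LDC females and 1007, 939.6 and 615 in control females. The LDC females lay below all other arrays. Ctgf was at -0.49 in LDC males against control males (SE 0.22, unadjusted p = 0.0419, adjusted p = 0.462) and at -1.02 in LDC females against control females (fold 0.494, SE 0.22, unadjusted p = 0.000346, adjusted p = 0.121). The adjusted p in females ranged from 0.0537 to 0.377 when 1 array was left out. Its effects in the 2 sexes differed by 0.53 (95% interval -0.13 to 1.19). Between the sexes, Ctgf was higher in LDC males than in LDC females by 1.26 (fold 2.39, SE 0.22, adjusted p = 0.00256), which held in all 12 fits without 1 array, and the difference was 0.73 in control mice (SE 0.22, adjusted p = 0.0569). Tgfb1, the main profibrotic cytokine, gave 130.4, 152 and 148 in LDC males and 133, 28.8 and 73.9 in control males, against 69.5, 146 and 59.2 in LDC females and 67.9, 104 and 169.9 in control females. The spread within groups was wide, and the LDC effects of 1.12 (95% interval -0.11 to 2.36) in males and -0.33 (-1.57 to 0.90) in females had adjusted p-values of 0.536 and 0.911. Without control male 2, the effect in males was 0.53.

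Among the fibrillar collagens, LDC gave no difference past even the unadjusted threshold in either sex. Col1a1, one of the chains of type I collagen and a usual readout of fibrosis, had signals of 57.5, 104 and 119 in LDC males and 71.7, 100.4 and 147 in control males, against 59.97, 80.0 and 128 in LDC females and 144, 82.5 and 96.6 in control females. The groups overlapped, with LDC effects of -0.19 (95% interval -1.22 to 0.84) in males and -0.30 (-1.33 to 0.72) in females. Col3a1, the chain of type III collagen, measured 940.2, 1115 and 1766 in LDC males and 1561, 1020.4 and 1943 in control males, against 2619.7, 1947 and 3755 in LDC females and 4237, 2074 and 2125 in control females. Every male was below every female. The sex difference was -1.12 in LDC mice (SE 0.32, unadjusted p = 0.00332, adjusted p = 0.0518) and -0.86 in control mice (SE 0.32, adjusted p = 0.125), and the LDC effects were -0.25 (-0.93 to 0.44) in males and 0.01 (-0.67 to 0.70) in females. Col5a2, a chain of the type V collagen that seeds fibrils, gave 149, 183 and 223 in LDC males and 226, 171 and 184 in control males, against 437, 368 and 242 in LDC females and 244, 314 and 291 in control females. No male reached a female, and the difference was -0.89 in LDC mice (adjusted p = 0.0625) and -0.55 in control mice (adjusted p = 0.250). Col1a2 and Col5a1 had group means between 647 and 957 and between 167 and 268, with no adjusted p under the threshold in any comparison.

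Type IV collagen and the laminins build the basement membrane. Col4a1 gave 614, 509.8 and 469 in LDC males and 749, 606 and 876 in control males, against 1023, 844 and 732 in LDC females and 1159, 709 and 983 in control females. LDC males 2 and 3 were below all control males. The LDC effect was -0.48 (SE 0.20, unadjusted p = 0.0340, adjusted p = 0.439) in males and -0.12 (95% interval -0.56 to 0.32) in females. All LDC males were below all LDC females, at -0.70 (SE 0.20, adjusted p = 0.0572). Its partner chain Col4a2 measured 446, 487 and 388 in LDC males and 562, 459 and 557 in control males, against 584, 510.4 and 455 in LDC females and 761, 667 and 525 in control females. LDC effects were -0.26 (-0.65 to 0.13) in males and -0.33 (-0.71 to 0.06) in females. For the laminin chains, Lamb1 gave 273, 263 and 299 in LDC males and 244, 125 and 229.8 in control males, against 385, 421 and 299 in LDC females and 457, 245 and 269 in control females. Lamc1 gave 263, 281 and 233 in LDC males and 205, 202 and 142 in control males, against 258, 179 and 241 in LDC females and 272, 222 and 249.7 in control females. Both laminin genes had all LDC males above all control males, at 0.54 (-0.09 to 1.17) for Lamb1 and 0.52 (-0.0042 to 1.04) for Lamc1, with adjusted p-values of 0.570 and 0.492. Without control male 2, the lowest array for Lamb1, its effect was 0.23. Col6a2 and Dcn had this order too, so that 4 members (11.1%) did, against 9.03% of all genes. A second probe set of Lamb1 had the opposite sign, -0.31. Col18a1, the source of endostatin, had means between 7047 and 7489 in the 4 groups.

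Type VI collagen forms beaded microfibrils around cells, and type XIV collagen binds the surface of fibrils. Col6a1 gave 136, 147 and 228 in LDC males and 221, 156 and 288 in control males, against 324, 236 and 395 in LDC females and 369, 183 and 207 in control females. In females the LDC effect was 0.37 (95% interval -0.35 to 1.09), and in males it was -0.38 (-1.10 to 0.34). All LDC males were below all LDC females, at -0.91 (unadjusted p = 0.0168, adjusted p = 0.142). Col6a2 measured 260.3, 280.0 and 278 in LDC males and 169.8, 239.6 and 258 in control males, against 216, 409 and 375 in LDC females and 337, 203 and 145 in control females. Its effect of 0.58 (-0.11 to 1.27) in females was not shared by its second probe set, at -0.16. Col14a1 was at -0.80 in control males against control females (SE 0.24, adjusted p = 0.0590) and Col6a3 at -0.41 (SE 0.31).

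No matrix glycoprotein passed the adjusted threshold in any comparison by its brightest probe set, but a second probe set of Sparc did between control males and control females. Fn1, plasma and cellular fibronectin, which hepatocytes also make, had means of 20092 ± 691 in LDC males, 19525 ± 654 in control males, 21318 ± 765 in LDC females and 22830.4 ± 1916 in control females (SD, n = 3 each). Its sex difference of -0.22 in control mice (SE 0.08) had an adjusted p of 0.102. Sparc, a collagen-binding matricellular protein, was at -0.49 in control males against control females (SE 0.18, adjusted p = 0.131) by its brightest probe set. Its second probe set measured 964, 733 and 1098 in control males, against 1893, 1279 and 1571 in control females, without overlap, at -0.76 (adjusted p = 0.0226), and another, dimmer one was at 0.80 (adjusted p = 0.317). Eln and Postn, encoding elastin and periostin, had LDC effects between -0.13 and 0.39 with wide intervals.

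The contractile genes spread widely within groups. Acta2, alpha smooth muscle actin, marks activated stellate cells and vessel smooth muscle and gave 231, 229 and 552 in LDC males and 377, 494 and 1342 in control males, against 872, 475 and 232 in LDC females and 271, 544 and 396 in control females. Tagln, the smooth muscle protein transgelin, gave 126, 96.6 and 474 in LDC males and 406, 216 and 582 in control males, against 426, 351 and 112 in LDC females and 247, 318 and 156 in control females. LDC males and control males overlapped for both genes through LDC male 3, and control male 3 was the highest array for both. The LDC effect in males was -1.03 for Acta2 (95% interval -2.13 to 0.07, adjusted p = 0.525) and -1.05 for Tagln (-2.31 to 0.22, adjusted p = 0.586), and that of Acta2 was -0.49 without control male 3. In females it was 0.24 (-0.86 to 1.34) for Acta2 and 0.15 (-1.12 to 1.42) for Tagln. Des and Vim, the intermediate filament genes of desmin and vimentin, had LDC effects of 0.79 (-0.15 to 1.74) and 0.05 (-0.61 to 0.71) in males, and of -0.21 (-1.16 to 0.74) and -0.30 (-0.96 to 0.36) in females.

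Genes whose proteins work together were compared within groups, as deviations from the group means over the 12 arrays, for 6 pairs. Acta2 and Tagln varied together, with Pearson's r of 0.79 (exact permutation test within groups, two-sided p = 0.0162, adjusted p = 0.0486) and Spearman's rho of 0.78 (exact permutation p = 0.0208, adjusted p = 0.125), and r was 0.76 without the 2 arrays farthest from the median of Acta2. Col1a1 and Col1a2, which assemble into type I collagen, had r of 0.62 (exact permutation p = 0.00772, adjusted p = 0.0463) and rho of 0.59 (exact permutation p = 0.0532, adjusted p = 0.160), with r of 0.65 without 2 arrays. Col1a1 and Col3a1 had r of 0.69 (exact permutation p = 0.0478, adjusted p = 0.0957), rho of 0.55 (exact permutation p = 0.120, adjusted p = 0.239), and r of 0.60 without 2 arrays. For both pairs with Col1a1 the arrays left out were LDC female 3 and LDC male 1. Control female 1 stayed in, with deviations of 0.46 for Col1a1 and 0.99 for Col1a2, so its part in these correlations was not tested. The pairs Col4a1 and Col4a2, Col6a1 and Col6a2, and Lamb1 and Lamc1 had r of 0.52, 0.34 and -0.15, with adjusted p-values of 0.296, 0.511 and 0.769 (exact permutation tests). After adjustment, the rank correlation passed for none of the 6 pairs.

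**Figure D5:**
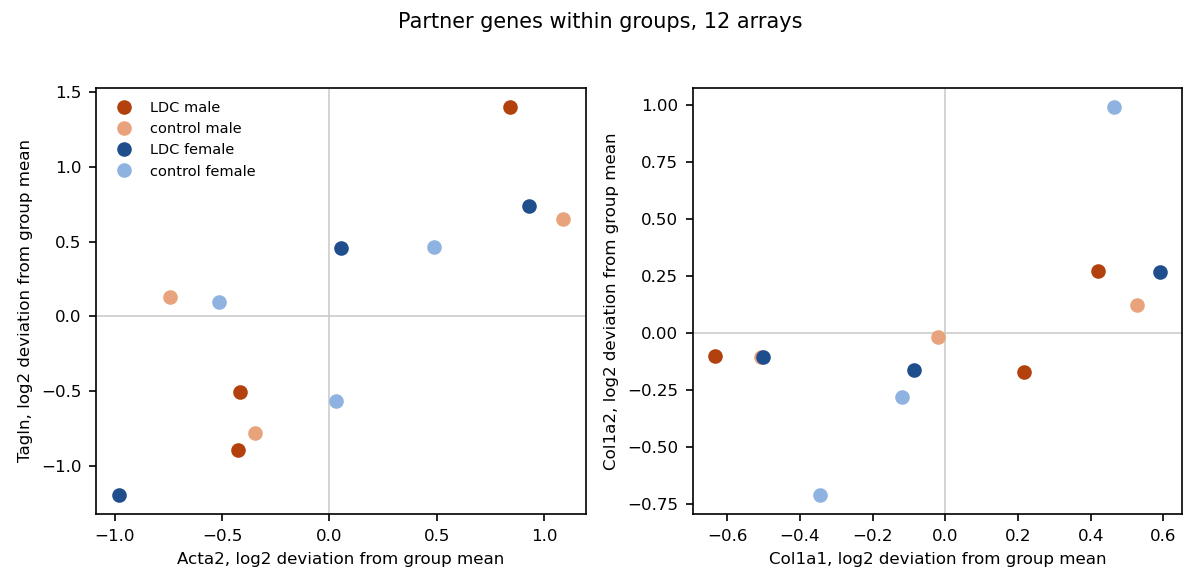
Log2 deviations from the group mean of Tagln against Acta2 (left) and of Col1a2 against Col1a1 (right), 1 point for each of the 12 arrays, coloured by group. Pearson's r was 0.79 for Acta2 and Tagln and 0.62 for Col1a1 and Col1a2.

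Inhibitors and proteases of the matrix did not move as one group. Timp2, an inhibitor that also helps to activate pro-MMP2, gave 342, 295 and 378 in LDC males and 590.2, 361 and 717 in control males, against 720.5, 509 and 676 in LDC females and 978, 569 and 724 in control females. The LDC effect in males was -0.67 (SE 0.26, unadjusted p = 0.0206, adjusted p = 0.386), while 3 other probe sets gave 0.54, -0.04 and -0.72. LDC males lay below LDC females on every array, at -0.90 (SE 0.26, adjusted p = 0.0521). Timp1, the inhibitor most often raised in fibrosis, gave 111, 66.2 and 79.3 in LDC males and 42.3, 45.3 and 97.8 in control males, against 62.6, 62.8 and 35.4 in LDC females and 136, 97.1 and 69.6 in control females. Of these signals, 35.4, 42.3 and 45.3 lay below 48.6, the filter applied to the mean. All LDC females lay below all control females, at -0.91 (95% interval -2.11 to 0.29), and in males the effect was 0.55 (-0.66 to 1.75). In all, 4 members (Col5a1, Pdgfra, Timp1 and Ctgf, 11.1%) had every LDC female below every control female, against 7.64% of all genes. Timp3, a matrix-bound inhibitor, gave 628, 733 and 822 in LDC males and 769, 513 and 553 in control males, against 592, 635 and 440.1 in LDC females and 637, 375 and 277 in control females. Its LDC effect in females was 0.44 (-0.13 to 1.01), and 0.17 without control female 3, while its 3 other probe sets gave -0.16, 0.49 and -0.11. Mmp2, a gelatinase, had group means between 156 and 188 by its brightest probe set, which differed between control males and control females by 0.04 (adjusted p = 0.968). A second probe set measured 54.6, 136 and 107 in control males, against 344, 211 and 251 in control females, at -1.51 (adjusted p = 0.0361), so the probe sets of Mmp2 disagreed on a sex difference.

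The wider matrix pathway was read from 5 further lists. No gene of the lists for collagen processing (19 tested), other matrix proteins (36), matrix proteases and inhibitors (17), TGF-beta and PDGF signalling (20) and matrix receptors (18) passed the adjusted threshold for LDC in either sex. In males the smallest unadjusted p-values included Plod1, a collagen lysyl hydroxylase, at 0.53 (unadjusted p = 0.00213, adjusted p = 0.171, limma), and Loxl1, an elastin cross-linking oxidase, at -1.66 (unadjusted p = 0.00343, adjusted p = 0.213). In females they included Pdgfc, a ligand of the PDGF alpha receptor, at -0.98 (unadjusted p = 0.00271, adjusted p = 0.233), and Ddr2, a collagen receptor kinase, at -0.94 (unadjusted p = 0.00268, adjusted p = 0.233). Between control males and control females, where 5.59% of all genes were lower and 3.84% higher in males, 2 of 19 collagen processing genes were lower in males (Crtap and the cross-linking enzyme Tgm2, at -0.80 and -0.74), as were 3 of 20 signalling genes (Pdgfc, the TGF-beta coreceptor Eng and the pseudoreceptor Bambi, at -1.18, -0.55 and -1.20). Of the 18 receptors, Itga6, Sdc1, Itga8 and Itgb5 were lower, at -3.47, -0.93, -0.87 and -0.46. Of the 36 other matrix proteins, Nid1, Emilin1 and Ecm1 were lower and Col5a3 was higher, at 1.01. Of the 17 proteases and inhibitors, Mmp19 and Ctsb were lower, at -0.58 and -0.34. Of these genes, Tgm2, Itga6, Sdc1 and Nid1 passed in all 12 fits that each dropped an array. Between LDC males and LDC females, where 4.2% of all genes were lower and 3.32% higher, Tgm2, Mmp19 and Sdc1 were lower in males, at -0.65, -0.92 and -0.50, and Col27a1, a fibrillar collagen gene, was higher, at 0.78. Tgm2 and Mmp19 passed in all 12 fits here.

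Stellate cell markers outside the list gave 5 of 17 lower in control males than in control females and none higher at an adjusted p under 0.05, beside 5.59% and 3.84% of all genes. These were Nt5e, the ecto-enzyme CD73, at -3.10, the transcription factor gene Tcf21 at -1.21, the parathyroid hormone receptor gene Pth1r at -1.07, the collectin gene Colec11 at -0.78 and the extracellular superoxide dismutase gene Sod3 at -0.74. Nt5e, Tcf21 and Colec11 passed in all 12 fits without 1 array. In LDC mice Nt5e and Tcf21 were lower in males, at -2.91 and -0.90, beside 4.2% of all genes, and Steap4, a metalloreductase gene, was higher, at 0.99, beside 3.32%. Of these, Nt5e passed in all 12 fits. Among markers of other cells in control mice, 1 of 7 portal fibroblast and smooth muscle genes was lower in males (Gas6, at -1.82, in all 12 fits), and the 1 of 20 endothelial genes that was lower (Fcgr2b, at -0.47) was a share near the 5.59% of all genes. Still, 15 of the 20 endothelial genes were below 0, against 55.7% of all genes. Their median was -0.27, and -0.14 without control male 3. Among hepatocyte genes, 1 of 10 was higher in males (Hnf4a, at 0.37, in 4 of 12 fits), beside 3.84% of all genes. Of these 10, 9 were above 0, where 55.7% of all genes were below 0. Their median was 0.17, and 0.04 without control male 1. Cela1, 1 of 5 pancreatic acinar genes, was also higher in males, at 1.09, in all 12 fits. None of 14 macrophage genes passed, although 13 of 14 were below 0, against 55.7% of all genes. Their median was -0.92, and -0.58 without control female 1. Without LDC female 3, 5 of the 14 passed. In LDC mice, 13 of the 14 macrophage genes were above 0 in males against females, where 55.1% of all genes were below 0. Their median was 0.54. That median was -0.06 without LDC female 3, with 10 of 14 below 0. Of the 14, Cd163 passed in LDC mice, higher in males at 1.68 and in all 12 fits, beside 3.32% of all genes. The hepatocyte gene Pck1 was also higher in LDC males, at 1.08. Gas6 was lower there, at -0.99, beside 4.2% of all genes. Both passed in all 12 fits. The part of these other cells in the sex difference of the stellate and matrix genes was not tested.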

How the data were processed

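Livers of 3 LDC males, 3 control males, 3 LDC females and 3 control females were measured on 12 Affymetrix mouse arrays. The deposited table holds 1 linear signal intensity per probe set and array, computed by the authors with MAS 5.0 in GeneSpring (MAS5 in the submitters' processing notes), scaled to a trimmed mean of 500.0 and without detection calls. Array number limits the precision. No scan dates were given in the sources used here, and 0 value columns were left unmapped.

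Of 45101 probe sets, 64 controls were left out. Gene names came from the platform annotation, updated by gene ID to RefSeq symbols. Intensities were log2 transformed, and the tests used the 27022 probe sets whose mean reached the 40th percentile (log2 signal 5.60, signal 48.6). The 4 group means were fitted over all 12 arrays with limma 3.58.1 (R 4.3.3), using eBayes and an intensity trend (8 residual and 6.35 prior degrees of freedom). P-values were two-sided and adjusted by Benjamini and Hochberg over all 27022. A gene is given by its brightest probe set, and shares of all genes are over 12820 genes. Exact permutation of arrays within groups (1296 arrangements) tested 6 partner pairs, adjusted over the 6. With 3 against 3 arrays, an exact test cannot go below 0.1. The procedure was tested on simulated data. Figures were drawn with matplotlib in Python.

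Members and gene lists were chosen by function, with earlier results of these data known. Array values are given for members with an adjusted p under 0.05 in any comparison, for the 4 smallest unadjusted p in each direction in the LDC comparisons and their difference, and for Col1a1, Col3a1, Acta2, Timp1 and Tgfb1. Of the other lists, called genes and some of the smallest p are named. Alternatives were other filters, quantile normalization, median centring, log2(signal + 32), 1 probe set per gene, eBayes without trend, arrayWeights, each sex alone, a t-test, a replicate block, other probe sets and leaving out each array. The paper names Student's t-test for body composition and metabolic results, and no test for the arrays. Leaving out each array was also applied to the other gene lists, a choice made after seeing the data.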

Additional observations from a re-analysis of the deposited data

How the results depend on the processing

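For LDC against control, in males, in females, in the difference of these effects and in their mean, 0 members were called under all alternatives run. For control males against control females, 6 were called, against 3 with eBayes without a trend (Lum, Lrat and Mmp14), 0 with the t-test, and 3 to 9 without 1 array. Ctgf, higher in males, was also called with a filter at the 60th percentile, log2(signal + 32) or 1 probe set per gene. Quantile normalization added Fn1 and Ctgf and dropped Pdgfrb. Median centring added Col14a1 and Dcn, and the filter at the 60th percentile added Col14a1. For LDC males against LDC females, 2 were called, against 7 with a filter at the 60th percentile, 8 with median centring, 4 with log2(signal + 32), 5 with 1 probe set per gene, 1 without a trend, 8 with arrayWeights, 0 with the t-test, and 1 to 6 without 1 array. The replicate numbers did not pair the arrays. After the group means were taken out, the mean correlation between groups was 0.0007 for same-numbered arrays and -0.0004 for arrays of other numbers. With the replicate block the counts were 8 in control mice and 5 in LDC mice.

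At an unadjusted p under 0.05, the 3 members in males became 6 with arrayWeights, 5 with each sex fitted alone and 1 with the t-test, and 2 to 6 without 1 array. The 3 in females became 1 with the t-test, and 1 to 4 without 1 array. The 3 in the difference of effects became 2 to 7 without 1 array. The 3 in the mean effect, all lower (8.33%, against 5.01% of all genes), became 5 with arrayWeights and 1 to 5 without 1 array. The 16 in control mice became 5 with the t-test. Of these 16, 14 were lower in males (38.9%, against 14.7% of all genes) and 2 higher (5.56%, against 9.8%).

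At the paper's criterion, 2-fold with an unadjusted p under 0.05, 2 members were lower in control males than in control females (5.56%, against 4.89% of all genes). These 2 became 5 with median centring, 4 with arrayWeights, 0 with the t-test and 0 to 6 without 1 array. The 1 lower in LDC females (2.78%, against 1.14% of all genes) became 0 with log2(signal + 32) or arrayWeights and 0 to 2 without 1 array. In LDC males there were 0, against 1.63% of all genes higher and 1.1% lower. This became 1 without a filter, with arrayWeights or with each sex alone, and 0 to 2 without 1 array. The 3 in LDC mice between the sexes were 2 lower in males (5.56%, against 2.6% of all genes) and 1 higher (2.78%, against 2.61%). They became 2 to 6 without 1 array. The 1 in the difference of effects (2.78%, against 3.11%) became 2 without a trend and 1 to 4 without 1 array.

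None of the values that changed sign had been called. Of 24 LDC effects given by array, 17 moved by over 1.5 times or changed sign without 1 array. Without 1 array, the effect in females ran from -0.23 to 0.73 for Acta2, from -0.23 to 0.35 for Col3a1 and from -0.73 to 0.0066 for Tgfb1, and that in males from -0.44 to 0.13 for Col1a1. Quantile normalization gave -0.0065 for Col3a1 in females. Other probe sets gave -0.31 for Lamb1 and 0.54 for Timp2 in males, and -0.16 for Col6a2 and -0.16 and -0.11 for Timp3 in females. Of 22 members with over 1 tested probe set, all their probe sets had 1 sign of the LDC effect for 10 in males and 13 in females. The sex difference had 1 sign for 13 in control mice and 16 in LDC mice. Medians and sign counts of members rest on the brightest probe set. The cause was not tested. Median centring moved the median of all genes to -0.11 in control mice and -0.13 in LDC mice, and the members' medians to -0.54 and -0.33. The precision was limited by 3 arrays a group, with SEs of the LDC effects of 0.48 for Col1a1, 0.56 for Timp1 and 0.58 for Tgfb1 on the log2 scale.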
